A study of Mus musculus with 15 samples.

Results

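The comparison described here sets Notch1 heterozygous aortic valves with short telomeres against Notch1 heterozygous aortic valves with long telomeres. It uses 8 of the 15 libraries of the series, 4 in each group (labelled N1het/TercG2 and N1het/TercWT), chosen by their genotype labels. All mice were C57BL/6 and 2 months old, and all 8 carried 1 disrupted copy of Notch1. The short-telomere mice were in addition Terc nulls of the second generation, which lack the RNA template of telomerase, while the long-telomere mice had intact Terc. Which exons the mutant Notch1 and Terc alleles lack is not given in the labels. Each library came from the 3 leaflets of 1 mouse, loosened with collagenase before RNA was isolated. The other 7 libraries, 3 with short and 4 with long telomeres, came from Notch1 wild type mice and serve below to show where the heterozygous valves differed. The deposited table gives 1 FPKM value (fragments per kilobase of transcript, scaled to the size of each library) per gene and group, so each value below is the authors' pooled value for the libraries of its group, with no spread, no depth and no test.

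Notch1 is a receptor that cells use to read signals from their neighbours, and its signal in the endothelium that covers the leaflets holds back calcification of the valve in mice and people. Telomeres are the repeats that cap chromosome ends. They shorten at each division when telomerase is missing, and Terc null mice therefore show stronger effects in later generations. The series title concerns how telomere length acts on the disease caused by loss of 1 copy of Notch1, and the pair of groups described here varies telomere length while holding the Notch1 genotype.

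Differences are log2(FPKM + 1) with short telomeres minus log2(FPKM + 1) with long telomeres. The value of 1 added to each FPKM makes the change of genes with low levels look smaller than it is. A gene is called past 2-fold when this difference is at least 1 in size and past 4-fold when it is at least 2. Of 18073 genes, 147 were past 4-fold higher in short-telomere heterozygous valves (0.813%) and 820 were past 4-fold lower (4.54%). Past 2-fold, 851 were higher (4.71%) and 3041 were lower (16.8%). In the contrast of short with long telomeres in Notch1 wild type valves, 1608 genes were past 2-fold higher (8.9%) and 3779 lower (20.9%). These shares are the background against which the counts of each gene list below are read. The median difference of all genes was -0.24, so list medians are given relative to it. After the groups were scaled to a median of 0 among genes with a mean of at least 1 FPKM, 1438 genes were past 2-fold higher and 2359 lower, which moves the share of higher genes to 37.9%, against 21.9% on the deposited scale. Of the genes past 4-fold lower, 275 were listed at 0 in 1 of the groups and 358 stayed under 10 FPKM in both. The median difference depended on level: it was -0.44 for 7942 genes with a mean of 1 to 10 FPKM, -0.11 for 6298 genes of 10 to 100 FPKM and 0.27 for 580 genes of 100 FPKM or more.

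**Figure D1:**
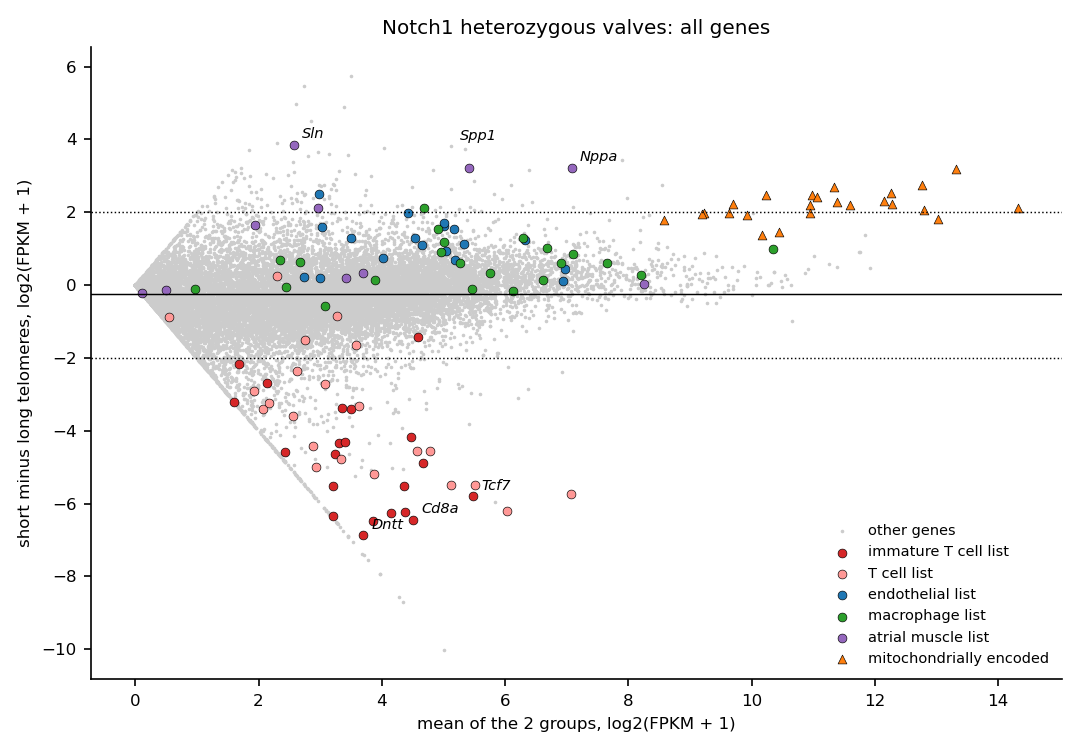
Each point is 1 gene, with the mean log2(FPKM + 1) of the pair of groups on the x axis and the difference (short minus long telomeres, Notch1 heterozygous) on the y axis. The solid line is the median of all genes at -0.24 and the dotted lines mark 4-fold; most genes of both T cell lists lie below the lower line, and the mitochondrially encoded genes lie at the right, above 0.

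Terc was listed at 0 FPKM in short-telomere heterozygous valves, against 4.52 FPKM in long-telomere heterozygous valves, which fits the labels. Notch1 stood at 23.3 FPKM with short and 25.1 FPKM with long telomeres, a difference of -0.10 between groups that carry the same Notch1 genotype. In Notch1 wild type valves it stood at 16.6 FPKM with short and 39.1 FPKM with long telomeres, a difference of -1.19. The short-telomere wild type value thus lay below both heterozygous values, so the level of Notch1 does not follow the Notch1 label in all groups. Markers of the labelled tissue were present in both groups. Decorin (Dcn), a proteoglycan of fibroblasts, stood at 3188 and 2255 FPKM with short and long telomeres, matrix Gla protein (Mgp) at 4568 and 3275 FPKM, the endothelial adhesion molecule Pecam1 at 146 and 106 FPKM, and Pdgfra, a growth factor receptor of fibroblasts, at 24.6 and 17.7 FPKM. Heart muscle RNA was also abundant in both, with cardiac actin Actc1 at 2251 and 1674 FPKM and cardiac troponin T (Tnnt2) at 1489 and 1173 FPKM. The Y-linked gene Ddx3y stood at 19.4 and 22.4 FPKM, and Xist, which is transcribed from the inactive X of females, at 0.0133 and 0.0831 FPKM. The 20 protein-coding genes measured nearest to Terc on chromosome 3, where passenger sequence of a targeted allele could lie, had differences between -1.13 and 0.60, and 3 of them were past 2-fold.

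To show the regulatory sequence of genes that the comparison turns on, promoter windows are printed for Spp1 and Nppa, among the genes that were highest with short telomeres, and for Cd8a and Rag1, among the lowest. Each runs from 250 bases before to 50 bases after the annotated start, 5′ to 3′ on the strand of the gene, from RefSeq on build GRCm38.p6. That build is not the one named in the submitters' notes, so no position here comes from the deposited table.
Spp1, chr5:104434861-104435160, plus strand: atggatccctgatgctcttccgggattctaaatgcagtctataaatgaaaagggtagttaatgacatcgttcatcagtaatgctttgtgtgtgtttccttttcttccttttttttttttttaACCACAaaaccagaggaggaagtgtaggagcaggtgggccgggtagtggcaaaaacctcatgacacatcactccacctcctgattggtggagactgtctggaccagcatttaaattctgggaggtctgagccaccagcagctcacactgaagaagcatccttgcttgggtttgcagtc
Nppa, chr4:148000472-148000771, plus strand: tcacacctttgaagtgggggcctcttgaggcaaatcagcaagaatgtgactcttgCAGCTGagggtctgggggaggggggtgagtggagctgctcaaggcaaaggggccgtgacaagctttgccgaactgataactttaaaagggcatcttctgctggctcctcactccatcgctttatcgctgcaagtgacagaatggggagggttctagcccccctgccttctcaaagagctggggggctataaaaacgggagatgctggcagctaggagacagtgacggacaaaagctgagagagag
Cd8a, chr6:71373177-71373476, plus strand: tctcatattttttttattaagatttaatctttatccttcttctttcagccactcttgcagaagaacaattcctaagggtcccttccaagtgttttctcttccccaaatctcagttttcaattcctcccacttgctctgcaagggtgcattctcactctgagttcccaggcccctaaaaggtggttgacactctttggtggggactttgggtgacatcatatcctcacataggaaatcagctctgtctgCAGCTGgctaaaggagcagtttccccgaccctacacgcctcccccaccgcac
Rag1, chr2:101649483-101649782, minus strand: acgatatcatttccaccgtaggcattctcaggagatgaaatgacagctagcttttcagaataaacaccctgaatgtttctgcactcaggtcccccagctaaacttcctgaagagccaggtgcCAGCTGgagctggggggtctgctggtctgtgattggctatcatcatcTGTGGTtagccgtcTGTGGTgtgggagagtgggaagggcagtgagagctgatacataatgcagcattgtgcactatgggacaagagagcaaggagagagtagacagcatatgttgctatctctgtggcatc
Capitals mark exact matches, on either strand, to the RUNX core TGTGGT, the AP-1 motif TGANTCA, the E-box CAGCTG and the GATA motif GATAAG, none of which overlap in these windows. RUNX factors act in T cells and in bone-forming cells, and E-boxes of this form are bound by E proteins of lymphocytes and by factors of muscle. Of 27025 RefSeq genes with a promoter window, 18.9% hold the RUNX core in any of their windows. The E-box is held by 18.3%, the AP-1 motif by 8.97% and the GATA motif by 8.58%. Of the 12255 measured genes with a window, 15.4% hold the RUNX core, 18.9% the E-box, 6.81% the AP-1 motif and 6.84% the GATA motif. A chromosome was left out of these counts. Spp1 has a further annotated start whose window held no match. Such matches describe the letters of the window and not the binding of a factor.

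T cell transcripts led the genes that were lower with short telomeres. Immature T cells live in the thymus, where they cut and join their receptor genes. Dntt, which adds bases at the receptor joints, stood at 0.198 FPKM in short-telomere and 139 FPKM in long-telomere heterozygous valves, a difference of -6.87. Rag1, the recombinase that cuts the receptor genes, stood at 2.01 and 138 FPKM, and its partner Rag2 at 0.0993 and 25.2 FPKM. The coreceptor chains Cd8a and Cd8b1 stood at 1.43 and 1.39 FPKM with short telomeres, against 210.1 and 179 FPKM with long telomeres, and Cd4 at 4.1997 against 93.6 FPKM. All 21 genes of the immature T cell list were past 2-fold lower and 20 were past 4-fold lower, with a median 4.41 below that of all genes. Sox4, the exception, stood at 13.7 and 38.1 FPKM, and it is expressed in many developing tissues. In the Notch1 wild type valves the same list had a median 0.08 above that of all genes, with 3 genes past 2-fold higher and 6 lower. The summed FPKM of the 21 genes was 43.0 in short-telomere and 1954 in long-telomere heterozygous valves, against 323 and 254 in short-telomere and long-telomere wild type valves, so the long-telomere heterozygous group was the highest of the 4 and the short-telomere heterozygous group the lowest.

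Genes of the T cell receptor and its signalling chain were lower in the same way. Cd3e, a signalling chain of the receptor complex, stood at 4.19 FPKM with short and 232 FPKM with long telomeres, a difference of -5.49. The constant regions Trbc1, Trbc2 and Trac stood at 6.66, 17.2 and 5.85 FPKM with short telomeres, against 564, 980.1 and 305 FPKM with long telomeres. Trbc1 and Trbc2 are near-identical copies, so reads could be split between them. The kinase Lck stood at 1.43 FPKM with short and 87.8 FPKM with long telomeres. Of 22 listed T and NK cell genes 19 were past 2-fold lower and 0 higher. The exceptions were genes that killer cells use: Prf1 (0.0725 and 0.973 FPKM), Nkg7 (6.24 and 11.9 FPKM) and Klrd1 (4.36 and 3.55 FPKM). Joining segments of the T cell receptor loci, short stretches that recombination joins to other segments of the receptor gene, showed the same order. All 62 of those in the table were past 2-fold lower; 50 were listed at 0 with short telomeres and 0 with long telomeres, and their summed FPKM was 38.8 and 4884. In the Notch1 wild type valves the sums were 847 with short and 697 with long telomeres. Of 39 variable segments 38 were past 2-fold lower.

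Among genes with at least 10 FPKM in 1 of the groups and a proper gene name, 13 of the 15 lowest differences were on the lists of blood and thymus cells. Beside Dntt and Cd8a these included Myb, which keeps blood precursors dividing (0.537 and 136 FPKM), Arpp21 (0.0223 and 82.0 FPKM), the chemokine receptor Ccr9 that guides T cell precursors to thymus and gut (1.03 and 154 FPKM), Themis (0.372 and 61.8 FPKM), the transcription factor Tcf7 (5.004 and 333 FPKM) and the chromatin organiser Satb1 (3.67 and 138 FPKM). The remaining pair was Cd27, a costimulatory receptor of T and B cells (2.16 and 101 FPKM), and Sla2, an adaptor that dampens receptor signals (0.526 and 47.6 FPKM). In a bulk sample, fewer cells of a type and less RNA per cell cannot be told apart.

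The thymus lies close to the base of the heart, and values of 4 genes of its supporting tissue, chosen after their values were seen, are given here. Psmb11, a proteasome subunit of the thymic cortex, was listed at 0 in short-telomere and stood at 5.02 FPKM in long-telomere heterozygous valves, with 41.7 and 0.840 FPKM in short-telomere and long-telomere wild type valves. Ccl25, the ligand of Ccr9 in thymus and gut, stood at 0.714 and 7.16 FPKM in the heterozygous valves and at 1.61 and 0.850 FPKM in the wild type valves. Foxn1, the master factor of thymic epithelium, was listed at 0 with short telomeres in both genotypes and stood at 0.662 and 0.121 FPKM in long-telomere heterozygous and long-telomere wild type valves. The cortical protease Prss16 was listed at 0 and stood at 0.979 FPKM in the heterozygous valves, with 0.279 and 1.25 FPKM in the wild type valves. Thymus tissue taken along with the leaflets and T cells inside the leaflets cannot be told apart in pooled values, and this holds for every list below that T cells also express, those of the cell cycle, telomeres and DNA repair included.

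**Figure D2:**
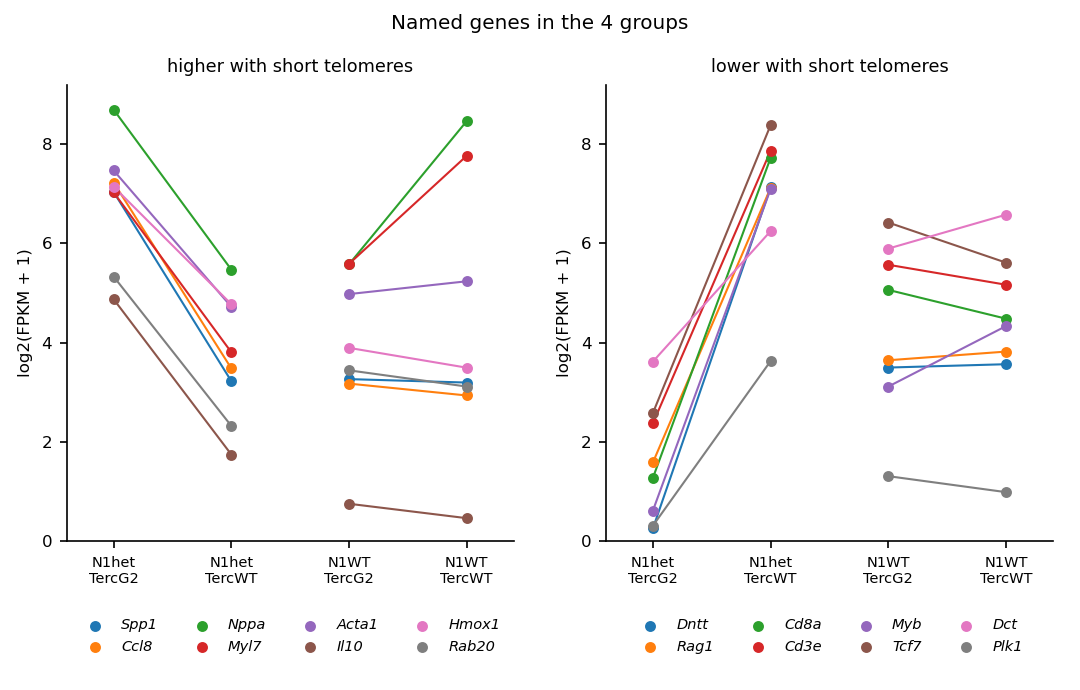
Log2(FPKM + 1) of 8 genes that were higher (left) and 8 that were lower (right) with short telomeres in Notch1 heterozygous valves, in each of the 4 groups; 1 point is 1 pooled value, and lines join short and long telomeres within a Notch1 genotype. Spp1, Ccl8, Acta1 and Hmox1 stand highest in N1het/TercG2, and the T cell genes stand highest in N1het/TercWT.

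Genes of dividing cells were lower along with the T cell genes. Plk1, a kinase of mitosis, stood at 0.245 FPKM in short-telomere and 11.4 FPKM in long-telomere heterozygous valves. Rrm2, which makes DNA building blocks, stood at 3.23 and 30.5 FPKM, and the proliferation marker Mki67 at 11.5 and 73.5 FPKM. Of 22 cell cycle and replication genes 19 were past 2-fold lower and 0 higher, with a median 1.88 below that of all genes, and the wild type valves had a median 0.10 below. Of 42 histone genes, which cells transcribe while they copy DNA, 27 were past 2-fold lower and 0 higher, and Hist1h1a stood at 1.20 and 54.3 FPKM. Nuclear lamin Lmnb1 stood at 1.26 and 17.8 FPKM. All these genes are also used by dividing thymocytes, whose list was at a summed 43.0 and 1954 FPKM in the same groups. What part of the cell cycle difference went with those cells was not tested.

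Telomerase and shelterin genes were lower as a group. Shelterin is the protein complex that hides chromosome ends from the DNA damage response. Pot1b, which binds the single strand at the end, stood at 2.47 FPKM with short and 10.3 FPKM with long telomeres, and its sister Pot1a at 2.34 and 6.70 FPKM. Pot1a and Pot1b are close paralogs. Terf2, which binds the double-stranded repeats, and its partner Terf2ip stood at 7.90 and 3.88 FPKM with short telomeres and at 17.0 and 11.6 FPKM with long telomeres. Tert, the catalytic subunit of telomerase, stood at 0.211 and 1.66 FPKM, and Gar1, a protein of the telomerase RNA particle, at 4.34 and 10.02 FPKM. Of 20 genes 10 were past 2-fold lower and 0 higher, against a background of 16.8% lower, and Terc itself is 1 of the 10. The median lay 0.76 below that of all genes, and 6 of 20 were past 2-fold lower after median scaling. The thymocyte list was low in the same group, and its part in the telomere gene differences was not tested. Acd, which links shelterin proteins, and the RNA particle protein Nop10 differed by 0.26 and -0.02. In Notch1 wild type valves the list had a median 0.20 above that of all genes, and Pot1b stood at 18.4 FPKM with short and 8.98 FPKM with long telomeres.

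DNA damage and repair genes had 7 of 22 members past 2-fold lower and 0 higher, with a median 0.46 below that of all genes. Lig4 and Xrcc6, which rejoin broken ends and are needed for receptor gene assembly in lymphocytes, stood at 2.31 and 8.03 FPKM with short telomeres, against 13.2 and 37.1 FPKM with long telomeres. Xrcc4, which acts in the same rejoining step, went the other way, at 21.3 FPKM with short and 10.7 FPKM with long telomeres, a difference of 0.93. Chek1, a kinase used when DNA is copied, stood at 0.542 FPKM with short and 4.45 FPKM with long telomeres. The kinases Atm and Atr, which sense damage, stood at 5.59 and 7.07 FPKM, against 6.97 and 5.83 FPKM. As with the cell cycle genes, these lists and the T cell lists were low in the same group, and the part of the T cells in the difference was not tested.

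Targets of p53 were higher in some cases and lower in others. Cdkn1a, which stops the cell cycle, stood at 274 FPKM with short and 138 FPKM with long telomeres, a difference of 0.98. Gdf15, a stress hormone, stood at 11.5 and 4.54 FPKM, Perp at 47.1 and 17.2 FPKM and Gadd45b at 59.8 and 23.7 FPKM. Trp53inp1 and Bbc3 were past 2-fold lower, at 10.4 and 0.507 FPKM with short telomeres and 40.5 and 2.47 FPKM with long telomeres. Of 22 targets 3 were past 2-fold higher and 2 lower, and the median lay 0.52 above that of all genes. In the wild type contrast 9 of 22 were past 2-fold higher and 2 lower, with a median 0.80 above that of all genes. Cdkn1a stood at 280 FPKM in short-telomere and 75.4 FPKM in long-telomere wild type valves. Cdkn2a, the locus of p16, stood at 1.69 and 0.393 FPKM in short-telomere and long-telomere heterozygous valves. The list of senescence genes and their secreted factors had 8 of 19 members past 2-fold higher in the heterozygous valves and 1 lower, Lmnb1. Its median lay 1.19 above that of all genes and 0.86 above genes of the same level. The wild type contrast had 7 of 19 past 2-fold higher and 2 lower.

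Cytokine, chemokine and adhesion genes were in part past 2-fold higher with short telomeres. Ccl8, a chemokine made by macrophages, stood at 149 FPKM in short-telomere and 10.2 FPKM in long-telomere heterozygous valves, a difference of 3.74, with 8.04 and 6.66 FPKM in the wild type valves with short and long telomeres. Il6 stood at 11.6 and 0.510 FPKM, Il10, which restrains inflammation, at 28.3 and 2.36 FPKM, and Cxcl13, which attracts B cells, at 18.05 and 0.839 FPKM. Cxcl1 stood at 164 and 35.1 FPKM and Cxcl2 at 333 and 140 FPKM; both attract neutrophils. The endothelial adhesion molecules Sele and Icam1 stood at 26.9 and 43.9 FPKM, against 10.1 and 15.6 FPKM. The list of cytokines and their targets holds neither Ccl8 nor Il10 nor Cxcl13, which were named for their size. Of its 22 genes 11 were past 2-fold higher, against a background of 4.71%, and 1 was past 2-fold lower, the NF-kappaB inhibitor Tnfaip3 (27.9 and 60.5 FPKM), which was not past 2-fold after median scaling. The cytokines Tnf and Il1b stood at 22.0 and 100.4 FPKM with short telomeres, against 21.6 and 69.8 FPKM with long telomeres. The wild type contrast had 12 of 22 past 2-fold higher, with a median 1.28 above that of all genes, against 1.10 in the heterozygous valves. Relative to genes of the same level the heterozygous median was 0.68. Immediate early and heat shock genes, which the dissociation of tissue can also induce, had 5 of 21 members past 2-fold higher, and Atf3 stood at 129 and 47.1 FPKM. What part of the difference arose during the collagenase step was not tested.

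Macrophage genes were higher to a smaller degree. C1qa, a chain of the complement starter C1q, stood at 145 FPKM with short and 70.7 FPKM with long telomeres, and Lyz2, lysozyme, at 1839 and 921 FPKM. The scavenger receptor Mrc1 and the endotoxin receptor Cd14 stood at 47.6 and 122 FPKM, against 20.5 and 48.8 FPKM, and Lyz1 at 52.3 against 11.3 FPKM. Of 22 genes 5 were past 2-fold higher and 0 lower, and the median lay 0.85 above that of all genes but 0.47 above genes of the same level. The receptor Csf1r, on which macrophages depend, stood at 41.6 and 44.9 FPKM. Genes of antigen presentation through MHC class II were near the background of 4.71% higher and 16.8% lower, with 0 of 11 past 2-fold higher and 2 lower. Their median was -0.03 relative to all genes. The lower genes were H2-Oa, at 0.755 and 7.91 FPKM, and H2-DMb1, at 14.3 and 32.9 FPKM.

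Genes of haem and iron handling, which macrophages use to recycle red cells, were in part higher with short telomeres. Hmox1, which breaks down haem, stood at 140.1 FPKM in short-telomere and 26.4 FPKM in long-telomere heterozygous valves, against 13.9 and 10.3 FPKM in the wild type valves. Slc40a1, the iron exporter ferroportin, stood at 19.8 and 2.14 FPKM, and the haemoglobin scavenger haptoglobin (Hp) at 7.12 and 1.26 FPKM. Of 19 genes 5 were past 2-fold higher and 0 lower. The ferritin chains Fth1 and Ftl1 stood at 2095 and 2710.3 FPKM, against 1663 and 1572 FPKM. Haemoglobin and red cell genes were higher in the same group, with 5 of 13 past 2-fold higher, and the globin Hbb-bt stood at 5935 and 2269 FPKM. Globin genes have near-identical copies, so their reads could be shared. The part of red cell RNA in the difference of haem genes was not tested.

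Spp1 stood out among genes of bone-forming cells. Spp1 encodes osteopontin, a secreted phosphoprotein found in bone matrix, macrophages and calcified valves. It stood at 130.2 FPKM in short-telomere and 8.35 FPKM in long-telomere heterozygous valves, a difference of 3.81, with 8.63 and 8.18 FPKM in wild type valves with short and long telomeres. The other 3 groups thus lay within 8.18 to 8.63 FPKM. Bmp2, a growth factor that induces bone, stood at 42.5 and 18.9 FPKM, and Alpl, the phosphatase that removes a mineral inhibitor, at 9.63 and 3.35 FPKM. Runx2, the transcription factor that starts bone formation, stood at 1.70 and 3.12 FPKM, Bglap2 at 5.51 and 3.79 FPKM and collagen gene Col1a1 at 79.5 and 105 FPKM. Of 12 measured genes 3 were past 2-fold higher, the 3 named first, and 0 lower, and the list median lay 0.26 above that of all genes. Of 16 listed genes 4 were not analysed here, among them Sp7 and Ibsp.

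Inhibitors of mineralisation had 1 of 10 measured members past 2-fold higher and 0 lower, with a median 0.68 above that of all genes. That member was Chrdl1, a BMP antagonist, at 7.80 and 2.15 FPKM. Enpp1 and Ank, which supply the mineral inhibitor pyrophosphate, stood at 14.1 and 48.4 FPKM with short telomeres, against 7.204 and 27.4 FPKM with long telomeres. Cartilage genes had 4 of 18 past 2-fold higher and 1 lower. The matrix proteins Chad, Cilp and Comp stood at 167, 31.8 and 89.4 FPKM, against 57.2, 9.68 and 42.2 FPKM. The cartilage regulator Sox9 stood at 35.2 and 33.4 FPKM, and Col11a2 at 1.11 and 5.05 FPKM. The wild type contrast had 1 of 18 cartilage genes past 2-fold higher and 5 lower, with Chad at 59.6 FPKM with short and 159 FPKM with long telomeres.

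Few collagen and other matrix genes were past 2-fold. Of 22 genes 2 were past 2-fold higher, Col8a1 (53.4 and 19.2 FPKM) and fibronectin Fn1 (192 and 82.5 FPKM), and 0 lower. Col4a1 and Col4a2, chains of basement membrane collagen, stood at 72.0 and 60.7 FPKM, against 36.6 and 33.5 FPKM. The list median lay 0.44 above that of all genes but 0.06 above genes of the same level, since abundant genes as a whole had higher differences. Matrix proteases and inhibitors had 4 of 18 past 2-fold higher and 0 lower: Timp4 (22.6 and 2.87 FPKM), Mmp3 (47.9 and 11.7 FPKM), Mmp13 (13.9 and 5.83 FPKM) and Adamts9 (5.80 and 2.35 FPKM). Lox, which crosslinks collagen and elastin, was among the 15 largest differences, at 19.4 and 2.03 FPKM.

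Endothelial genes had a median 1.43 above that of all genes, the highest of the lists on that scale. Relative to genes of the same level their median was 1.12, below that of the atrial list at 1.37, the neutrophil list at 1.305 and the platelet list at 1.24. Cldn5, a protein of tight junctions, stood at 17.8 FPKM with short and 2.33 FPKM with long telomeres. Kdr, the main receptor of vascular growth factor, stood at 41.9 and 9.87 FPKM, and the transcription factors Sox17 and Sox18 at 13.2 and 56.7 FPKM, against 3.74 and 16.8 FPKM. Of 18 genes 11 were past 2-fold higher and 0 lower, against a background of 4.71% higher. All 18 were above 0, from 0.10 for Eng (126 and 118 FPKM) to 2.50 for Cldn5. The wild type contrast had 2 of 18 past 2-fold higher and 1 lower, with a median 0.54 above that of all genes. Genes that answer to blood flow had 4 of 13 past 2-fold higher, with endothelin Edn1 at 27.8 and 6.35 FPKM and caveolin Cav1 at 190.1 and 53.8 FPKM. Klf2 and Nos3, which steady laminar flow induces, stood at 50.2 and 35.7 FPKM, against 36.9 and 24.6 FPKM. Fabp4 and Cd36, which capillary endothelium and fat cells both use to take up fatty acids, stood at 626 and 381 FPKM, against 165 and 111 FPKM, while the fat cell hormone Adipoq was listed at 0 and 0.283 FPKM.

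Notch pathway genes had 4 of 22 members past 2-fold higher and 1 lower, with a median 0.46 above that of all genes. Among receptors, Notch4, which endothelium expresses, stood at 9.19 FPKM with short and 2.16 FPKM with long telomeres. Notch2 and Notch3 stood at 14.5 and 2.76 FPKM, against 21.6 and 6.20 FPKM. Among ligands, Dll1, Dll4, Jag1 and Jag2 stood at 8.12, 6.39, 16.1 and 4.85 FPKM, against 2.85, 1.96, 8.81 and 2.49 FPKM. Among targets, Nrarp stood at 7.74 FPKM with short and 1.95 FPKM with long telomeres, Heyl at 8.06 and 13.9 FPKM, and Hes1 at 32.5 and 20.8 FPKM. Hey1 and Hey2 stood at 18.6 and 20.8 FPKM with short telomeres, against 13.3 and 15.7 FPKM with long telomeres. Dtx1, the member past 2-fold lower, stood at 0.154 and 1.42 FPKM. The endothelial list, with Pecam1 at 146 and 106 FPKM, was high in the same group, and its part in the Notch differences was not tested. The wild type contrast had 2 of 22 past 2-fold higher and 8 lower, with a median 0.41 below that of all genes.

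Genes of atrial muscle and of stressed heart muscle were higher with short telomeres. Nppa, the atrial natriuretic peptide, stood at 413 FPKM in short-telomere and 43.4 FPKM in long-telomere heterozygous valves, a difference of 3.22. Myl7, the atrial myosin light chain, stood at 129 and 13.01 FPKM, and sarcolipin (Sln), an atrial inhibitor of the calcium pump, at 21.6 and 0.563 FPKM. Acta1, the skeletal actin that stressed heart muscle switches on, stood at 176 and 25.4 FPKM, Nppb at 89.3 and 29.7 FPKM and Ankrd1 at 277 and 120.1 FPKM. Of 10 atrial genes 5 were past 2-fold higher, and of 13 stress genes 6. Bmp10, the defining secreted factor of the atrium, was listed at 0 with short and at 0.162 FPKM with long telomeres. The list of general heart muscle had 0 of 20 genes past 2-fold in either direction, with Myh6 at 489 and 503 FPKM. In the Notch1 wild type valves the atrial order was the other way round: Nppa stood at 46.8 FPKM with short and 352 FPKM with long telomeres, Myl7 at 47.1 and 216 FPKM and Sln at 0.439 and 31.4 FPKM, and 9 of 10 atrial genes were past 2-fold lower. With 1 pooled value per group this difference between the Notch1 genotypes cannot be tested, and the amount of atrial tissue in each dissection is not given in the labels.

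**Figure D3:**
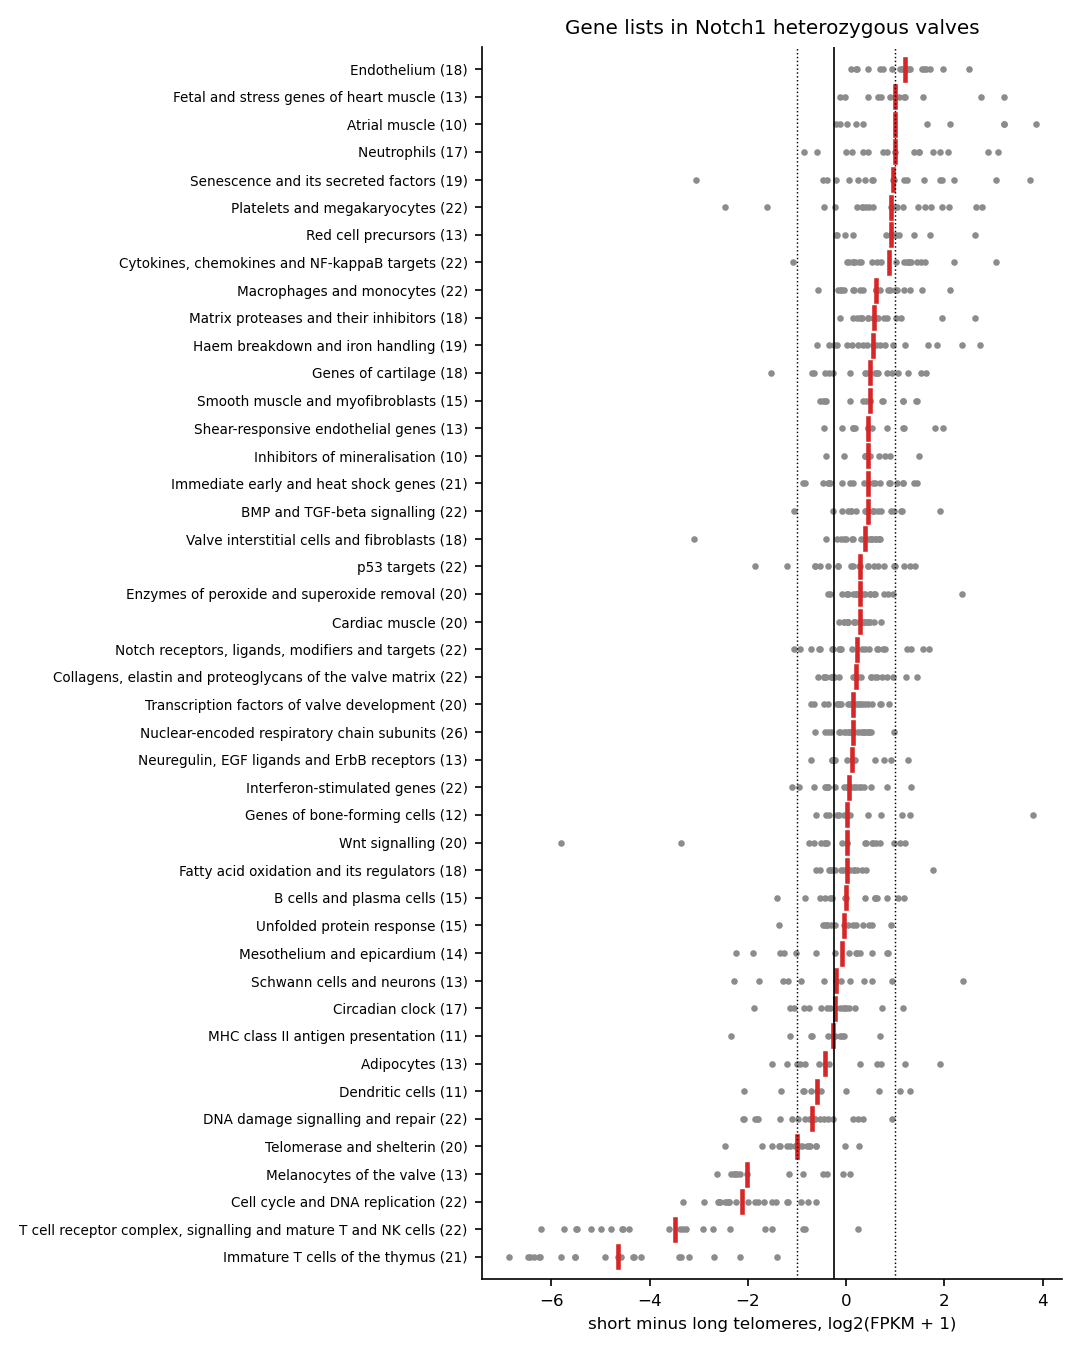
Differences (short minus long telomeres, log2(FPKM + 1), Notch1 heterozygous) of the members of 44 gene lists with at least 10 measured genes; each grey point is 1 gene, the red bar is the list median and the number of measured genes stands in brackets. The solid line is the median of all genes at -0.24 and the dotted lines mark 2-fold; the immature T cell list lies lowest and the endothelial list highest.

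Smooth muscle, platelet and neutrophil genes were in part higher with short telomeres. Myh11, the smooth muscle myosin, stood at 14.05 and 4.55 FPKM with short and long telomeres, below the 24.1 and 83.6 FPKM of the wild type valves with short and long telomeres. Of 15 listed smooth muscle genes 4 were past 2-fold higher and 0 lower, and 11 had a difference above 0. Among those that went the other way, Cnn1 stood at 2.66 and 4.06 FPKM and Smtn at 14.8 and 21.9 FPKM. The wild type contrast had 0 of 15 past 2-fold higher and 8 lower. The platelet receptor subunit Gp9 stood at 20.8 and 2.21 FPKM and the platelet chemokine Ppbp at 85.9 and 12.9 FPKM, with 346 and 531 FPKM and 850 and 1636 FPKM in the wild type valves. Of 22 platelet genes 9 were past 2-fold higher and 2 lower, P2rx1 (0.120 and 5.18 FPKM) and Rasgrp2 (1.04 and 5.20 FPKM). The platelet integrin gene Itga2b stood at 1.49 and 0.803 FPKM. The wild type contrast had 1 of 22 platelet genes past 2-fold in each direction. S100a8 and S100a9, the subunits of calprotectin, stood at 77.4 and 62.9 FPKM with short and 17.6 and 16.0 FPKM with long telomeres. In the wild type valves S100a8 stood at 892 FPKM with short and 4.99 FPKM with long telomeres. Of 17 neutrophil genes 8 were past 2-fold higher in the heterozygous contrast and 15 in the wild type contrast.

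Pigment cell genes were lower with short telomeres. Melanocytes settle in mouse heart valves, and their enzymes Dct, Tyrp1 and Tyr stood at 11.3, 3.73 and 1.14 FPKM with short telomeres, against 74.97, 23.0 and 8.97 FPKM with long telomeres. The pigment granule protein Pmel stood at 2.81 and 17.4 FPKM and Mlana at 11.2 and 48.6 FPKM. Of 13 melanocyte genes 8 were past 2-fold lower, 7 past 4-fold lower and 0 higher, against a background of 16.8% and 4.54% lower. The receptors Kit and Ednrb and the regulator Mitf, which other cells of the valve also express, stood at 3.04, 12.2 and 7.93 FPKM, against 4.61, 12.8 and 7.42 FPKM. The summed FPKM of the 13 genes was 54.1 in short-telomere and 209 in long-telomere heterozygous valves, against 133 and 189 in short-telomere and long-telomere wild type valves.

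RNA from the mitochondrial genome made up a larger share of the table with short telomeres. This small circular genome encodes subunits of the respiratory chain and the transfer RNAs that translate them. The 24 mitochondrial genes measured, with no ribosomal RNA among them, summed to 35.0% of all FPKM in short-telomere heterozygous valves, against 10.01% in long-telomere heterozygous valves. Most of this was the 20 transfer RNA genes, at 26.1% and 7.12%, while the 4 protein-coding genes gave 8.83% and 2.89%. All 24 were past 2-fold higher and 15 were past 4-fold higher, with differences between 1.38 and 3.18 and a median of 2.19. The ATP synthase subunits mt-Atp6 and mt-Atp8 stood at 11898 and 15617 FPKM with short telomeres and at 2050.2 and 4473 FPKM with long telomeres, and the complex I subunit mt-Nd3 at 14522 and 3482 FPKM. The transfer RNA mt-Tf stood at 30698 and 3393 FPKM and mt-Tl1 at 42733 and 9801 FPKM. Annotated lengths of the 20 transfer RNA genes were 59 to 75 bases, shorter than the reads of 100 bases, so their FPKM rests on a large length correction and on reads that also cover their neighbours. Leaving out all mitochondrial genes and setting the groups to the same sum of FPKM moved the median difference of the other genes to -0.26, so the lower values of most genes were not removed by that step.

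Notch1 wild type valves also had a larger mitochondrial share with short telomeres, over a wider range of single genes. There the share of summed FPKM was 32.5% with short and 14.4% with long telomeres, but 11 of 24 genes were past 2-fold higher and 4 past 4-fold. The transfer RNA genes alone gave 24.9% and 11.3%. Differences in the wild type contrast ran from -0.56 for mt-Tk to 2.60 for mt-Te. The transfer RNAs mt-Ta, mt-Tn, mt-Tc and mt-Ty, which lie side by side on the minus strand, differed by 2.46, 2.43, 2.19 and 2.23 in heterozygous valves and by 0.19, 0.06, -0.33 and 0.24 in wild type valves. Nuclear genes for the same respiratory chain did not share the difference: 0 of 26 were past 2-fold in either direction, with Atp5b, another subunit of the ATP synthase, at 589 and 435 FPKM with short and long telomeres, and their median lay 0.05 below that of genes of the same level. Of 76 genes for proteins of the mitochondrial ribosome 0 were past 2-fold higher and 9 lower. Cytosolic ribosomal protein genes differed little, with a median of -0.01 and 1 of 77 past 2-fold in each direction.

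**Figure D4:**
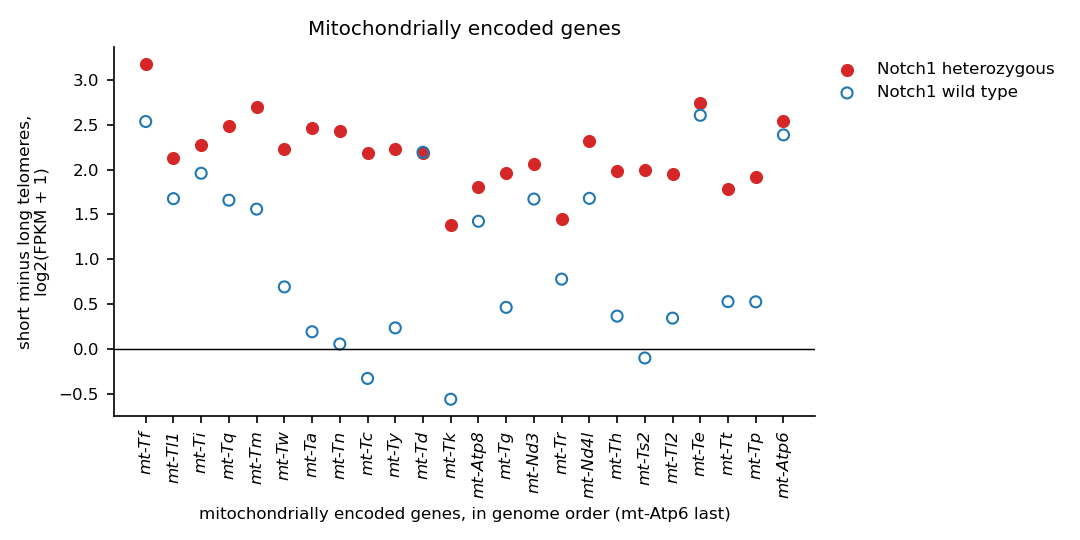
Difference between short and long telomeres, log2(FPKM + 1), for the 24 mitochondrially encoded genes in genome order (mt-Atp6, without a match in the annotation, is last); filled points are Notch1 heterozygous and open points Notch1 wild type valves. Filled points lie between 1.38 and 3.18, and open points between -0.56 and 2.60.

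Among single genes, the 15 largest differences upward with at least 10 FPKM in 1 of the groups also held Alb, the liver protein albumin (17.8 and 0.273 FPKM, and listed at 0 and 0.0777 FPKM in wild type valves), Pla2g2d, a phospholipase of immune tissue (16.4 and 1.04 FPKM), Rab20, a small GTPase of phagosomes (39.3 and 4.01 FPKM), and Aqp7, a glycerol channel of fat and capillaries (25.3 and 2.49 FPKM). Below the T cell genes, the largest downward differences outside the blood and thymus lists included Mgst2 (listed at 0, against 27.98 FPKM), Aqp11 (1.43 and 66.3 FPKM) and Ly6d, a surface marker of lymphoid precursors and epithelia (4.17 and 77.7 FPKM). Thy1, listed here with fibroblasts and also abundant on thymocytes, stood at 24.3 and 216 FPKM, and it was the 1 of 18 valve fibroblast genes past 2-fold.

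The same contrast in Notch1 wild type valves, which shares no library with the heterozygous one, called 419 genes past 4-fold higher (2.32%) and 935 lower (5.17%). Of genes past 4-fold higher in heterozygous valves 26 were also past 4-fold higher in wild type valves, 17.7% of the heterozygous and 6.21% of the wild type set. Of genes past 4-fold lower 156 were shared, 19.0% and 16.7% of the sets. In the opposite direction, 15 genes past 4-fold higher in heterozygous valves were past 4-fold lower in wild type valves, and 41 genes past 4-fold lower were past 4-fold higher. Across all genes the differences of the 2 contrasts had a Pearson correlation of 0.18 and a Spearman correlation of 0.20; genes are not independent replicates, and all values share the same library method and mitochondrial shift.

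**Figure D5:**
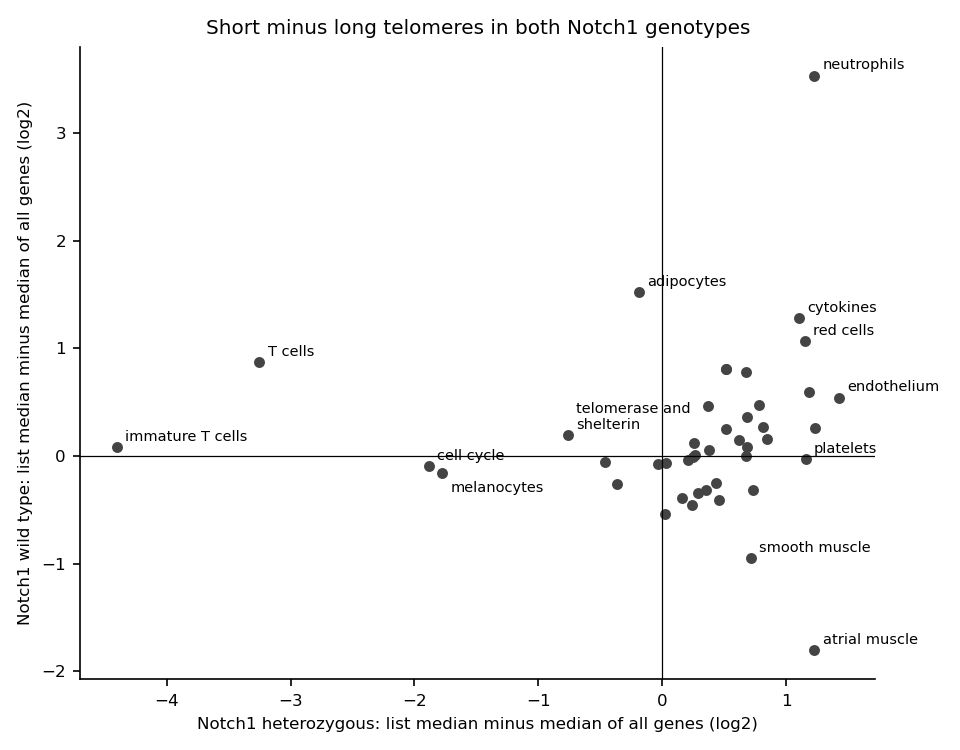
Median difference of each of 44 gene lists (short minus long telomeres, minus the median of all genes, log2 scale) in Notch1 heterozygous valves on the x axis and in Notch1 wild type valves on the y axis; each point is 1 list. The immature T cell list lies at -4.41 on the x axis and 0.08 on the y axis, the T cell list at -3.25 and 0.87, neutrophils lie high at the top right, and the atrial list lies at 1.23 on the x axis and -1.80 on the y axis.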

How the data were processed

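RNA-seq was made from aortic valve leaflets of 15 mice with a kit that amplifies complementary DNA primed with random and poly-T primers. Per the labels' protocols, paired reads of 100 bases were taken from lanes that held 4 libraries each. The kit is not stated to keep the strand, so antisense and overlapping genes cannot be told apart. Per the submitters' processing notes the tools included FastQC, TopHat, SAMtools and Picard, and the mouse build was mm9. Per the file headers, the deposited values are FPKM, pooled by the authors to a single value for each group. The pooling method, the annotation and the program behind the FPKM are not given in the sources used for this text. Lane, date and depth of the libraries are unknown, so batches could not be examined. The authors' call columns were not used, and a few genes that the rule below would name are not reported here.

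Symbols, gene types and lengths came from GENCODE M21 for 16966 of 18073 genes (93.9%). Differences are log2(FPKM + 1), and genes past 2-fold or 4-fold were counted over the whole table. A test by limma would need values per library and was not possible on pooled values. The steps were tested on simulated data. The 46 gene lists, the thresholds and the members were chosen with earlier results of these data known. Named genes are Notch1 and Terc, the 15 largest differences in each direction among 7203 named genes with at least 10 FPKM in 1 of the groups, and up to 4 members per list with at least 5 FPKM; other list members, ribosomal and histone families, T cell receptor segments and genes outside the lists were named after their values were seen. Of the B cell, dendritic, mast cell, mesothelial, adipocyte, Schwann cell, BMP, Wnt, interferon, unfolded protein, antioxidant, clock, fatty acid, valve factor, neuregulin and sex gene lists, results stand in the closing section or in part above. Alternatives changed the pseudocount, the filter on low values, the scaling and the genes included. Computation used pandas 2.3.3 with numpy 2.4.6 under Python 3.11.15, and figures used matplotlib 3.10.9.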

Additional observations from a re-analysis of the deposited data

How the results depend on the processing

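No paired analysis was possible because the deposited table holds 1 pooled value per group, and for the same reason leaving out each library in turn was not run. With a pseudocount of 0.1 the genes past 4-fold numbered 440 higher and 2215 lower, those past 2-fold 1414 and 5005, and those past 4-fold in both Notch1 genotypes 88 higher and 854 lower. Among genes with a mean of at least 10 FPKM the numbers past 4-fold were 78 higher and 283 lower, past 2-fold 373 and 767, and past 4-fold in both genotypes 17 and 59. With median scaling 235 genes were past 4-fold higher, 1438 past 2-fold higher and 44 past 4-fold higher in both genotypes; the lower counts stayed within 1.5 times. Without genes listed at 0 in either group, an alternative chosen after seeing the data, 545 genes were past 4-fold lower and 91 in both genotypes. The higher genes made up 15.2% of those past 4-fold as deposited and 24.7% with median scaling. The counts past each fold stayed within 1.5 times with a minimum mean of 1 FPKM, without mitochondrial genes and without the blood and thymus lists. Of 216 genes recomputed under the alternatives, not all of those named above, none past 2-fold changed sign, which no alternative could bring about. A pseudocount or a filter cannot turn a sign. Median scaling multiplied the short-telomere values by 1.22 and the step without mitochondrial genes by 0.977, too little to turn a difference past 2-fold. The size of a difference could change. With a pseudocount of 0.1, 49 of the 216 genes and the medians of 2 lists moved by more than 1.5 times. Medians of 7 lists did so among genes with a mean of at least 10 FPKM, and of 1 list without genes listed at 0. Among the 7, the adipocyte list stood at 1.35 relative to all genes, against -0.19 over all its genes, and the bone list at 1.20, against 0.26. The atrial list stood at 2.12 with a minimum of 1 FPKM, against 1.23. Relative to genes of the same level, also chosen after seeing the data, 14 lists lay at least 0.5 above and 5 below, against 21 and 5 relative to all genes. The cause of these changes was not tested beyond the construction of each alternative, which changes the weight of low genes or the genes included. Depth is unknown, so no limit for low values can be given.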

Other observations

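Counts for lists not described above follow, against a background of 4.71% of all genes past 2-fold higher and 16.8% lower in Notch1 heterozygous valves. BMP and TGF-beta genes had a median 0.68 above that of all genes, with 3 of 22 past 2-fold higher and 1 lower, and Bmp6 stood at 54.3 FPKM with short and 24.4 FPKM with long telomeres. Wnt genes had 2 of 20 past 2-fold in each direction; the lower ones, Tcf7 and Lef1 (2.2002 and 32.0 FPKM), are also on the immature T cell list. Transcription factors of valve development had 0 of 20 past 2-fold in either direction. Interferon-stimulated genes had 1 of 22 higher, Rsad2 (44.4 and 17.1 FPKM), and 1 lower, Oas2 (3.13 and 7.91 FPKM). Unfolded protein response genes had 0 of 15 higher and 1 lower, Sdf2l1 (8.45 and 23.6 FPKM). Of 20 enzymes of peroxide and superoxide removal 1 was past 2-fold higher, Hmox1, and 0 lower. Their median lay 0.51 above that of all genes and 0.26 above genes of the same level.

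Clock genes had 1 of 17 higher and 3 lower, with Cry1 at 5.79 and 14.01 FPKM and Ciart at 1.11 and 6.78 FPKM. Fatty acid oxidation genes had 1 of 18 higher, Cd36, and 0 lower. Neuregulin and EGF family genes had 1 of 13 higher, Ereg (10.1 and 3.63 FPKM), and 0 lower. B cell genes had 2 of 15 higher and 1 lower, with Ebf1 at 29.5 and 12.5 FPKM and Ms4a1 at 6.42 and 2.56 FPKM. Dendritic cell genes had 2 of 11 in each direction, mast cell genes 0 of 6, and Schwann cell and neuron genes 1 of 13 higher and 4 lower, with Dbh, which makes noradrenaline, at 7.93 and 0.715 FPKM. Mesothelial genes had 0 of 14 higher and 5 lower, with the keratin Krt18 at 0.998 and 8.39 FPKM. Adipocyte genes had 2 of 13 higher and 3 lower, with Plin1 at 0.571 and 0.286 FPKM. Of 6 sex-linked genes 0 were past 2-fold higher and 1 was lower, Kdm5d (4.65 and 10.8 FPKM). Small nucleolar RNA genes had 64 of 116 past 2-fold lower and 13 higher, and their FPKM rests on short lengths.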
